A study of Mus musculus with 6 samples.

Results

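Replication histone genes encode the linker histone H1 and the core histones H2A, H2B, H3 and H4 that package newly copied DNA. All 67 features whose symbol started with Hist1h, Hist2h, Hist3h or Hist4 were taken, out of 31053 features in the deposited tables of 6 mouse colon tumours. They comprised 6 H1, 18 H2A, 18 H2B, 12 H3 and 13 H4 genes. Every one of the 67 had at least 1 unique molecular identifier (UMI, 1 captured RNA molecule) in a kept cell. In 62 of them the sum over kept cells reached 20 UMIs, and the other 5 are counted and not named. The genes were selected because several were higher in epithelial cells of the AOM PN tumours than of the Apc ICI tumours. Values of that contrast are therefore given as a description, and no test of it is used as support.

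Each tumour gave 1 droplet-based 3′ single-cell library, 3 from each model, and all tumours came from male mice and were whole colon tumours taken at clinical endpoint. The Apc ICI mice carried VilCreER and Apcfl/fl, and Cre had been switched on by a single submucosal injection in the colon of 70 µl of 100 µM 4-OH tamoxifen. The AOM PN mice carried VilcreER, P53fl/fl and Notch1Tg. They received 2 mg tamoxifen into the peritoneum and, from day 4, the carcinogen azoxymethane (AOM) at 10 mg/kg once a week for 6 weeks. The villin promoter drives Cre in intestinal epithelium, so Cre acts there and not in the immune cells. The models therefore differ in alleles, in the route of tamoxifen and in carcinogen, and these cannot be told apart. The group field of the labels also reads Ageing Tumor for AOM PN and Intracolonic Induction for Apc ICI, and ages were not given. The labels do not say that the samples came from separate animals, so p-values measure only the spread between these samples.

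Replication histone genes are transcribed mainly in S phase, when DNA is copied. Their messages are known to end in a short RNA hairpin, the stem-loop, in place of a poly(A) tail. The protein SLBP binds that hairpin, and the messages are destroyed when DNA synthesis stops. Some members, among them Hist1h1c and Hist1h2bc, are known also to make polyadenylated messages outside S phase. The libraries used here were primed on poly(A), so a UMI of a member comes from a polyadenylated molecule or from priming inside the message, and these could not be told apart. Many H2A and H2B genes lie head to head in pairs that share a promoter.

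The stem-loop is shown because the place where an annotated transcript ends, at the hairpin or far beyond it, bears on how oligo-dT capture reads each gene. In the lines below the 16 bases of the hairpin are in capitals, flanked by the neighbouring transcript bases, from GENCODE transcripts of mouse build GRCm38, written as DNA on the coding strand.
Hist1h2ap: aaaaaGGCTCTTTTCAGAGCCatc
Hist1h2ab: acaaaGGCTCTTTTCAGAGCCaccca
Hist1h3c: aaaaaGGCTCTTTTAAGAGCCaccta
Hist1h2ae: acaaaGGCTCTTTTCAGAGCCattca
Hist1h4d: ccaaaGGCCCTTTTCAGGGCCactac
Hist1h1c: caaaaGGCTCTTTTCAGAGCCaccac
Hist1h1e: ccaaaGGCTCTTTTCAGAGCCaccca
Hist3h2a: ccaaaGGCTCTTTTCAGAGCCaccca
Hist4h4: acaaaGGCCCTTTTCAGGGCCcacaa

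The pattern searched was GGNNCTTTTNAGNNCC on the transcript strand. It occurred in 124 of 141767 transcripts (0.0875%) and in 44 of the 67 members, and 26 of the 44 carried the form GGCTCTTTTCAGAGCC. In 22 members it lay within 100 bases of the annotated 3′ end, and these held 22.1% of the members' UMIs. Hist1h2ap ended 3 bases, Hist1h2ab 11 bases and Hist1h3c 74 bases after it. In the other 22 the annotated transcript ran further, and these held 49.2% of the UMIs. Hist1h2ae ran on for 151 bases, Hist1h4d for 770, Hist1h1c for 840, Hist1h1e for 1153, Hist3h2a for 1643 and Hist4h4 for 2445. The annotated transcripts of the remaining 23, among them Hist1h2bc and Hist1h1b, had no match, which says only that these letters were not in the annotated sequence. The copies resemble one another: over stretches of 90 bases, a median of 66.1% of a member's stretches occurred in no other member, and in 26 members under 50% did. Of Hist1h2ap only 7.63% of stretches were its own, of Hist1h2ae 68.1%, of Hist1h1e 73.8%, of Hist1h1c 94.3% and of Hist1h1b 100%. How the authors' counting shared reads between copies was not given in the sources used here, so counts of a single member, and of Hist1h2ap most, are uncertain, and sums over members are less so.

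The promoters of 4 members with different patterns in the data are shown, from RefSeq (GRCm38.p6), each 300 bases from 250 before to 50 after the start of the gene. Capitals mark a TATA motif (TATAAA), the CCAAT box and the octamer ATTTGCAT on either strand, so the CCAAT box also appears as ATTGG and the octamer as ATGCAAAT.
Hist1h2ae, chr13:23571171-23571470, minus strand: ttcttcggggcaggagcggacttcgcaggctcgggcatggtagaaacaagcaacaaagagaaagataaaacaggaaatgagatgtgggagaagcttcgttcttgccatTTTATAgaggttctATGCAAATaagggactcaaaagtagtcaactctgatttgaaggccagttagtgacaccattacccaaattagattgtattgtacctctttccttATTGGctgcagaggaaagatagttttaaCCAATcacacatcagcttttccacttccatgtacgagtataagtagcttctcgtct
Hist1h1b, chr13:21780576-21780875, minus strand: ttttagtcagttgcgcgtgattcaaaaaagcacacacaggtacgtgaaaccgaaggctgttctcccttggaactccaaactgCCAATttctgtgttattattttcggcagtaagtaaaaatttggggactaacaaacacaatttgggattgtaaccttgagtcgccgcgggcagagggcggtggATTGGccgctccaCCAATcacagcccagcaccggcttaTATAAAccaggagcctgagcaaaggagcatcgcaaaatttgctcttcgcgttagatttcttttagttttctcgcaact
Hist1h3c, chr13:23745472-23745771, minus strand: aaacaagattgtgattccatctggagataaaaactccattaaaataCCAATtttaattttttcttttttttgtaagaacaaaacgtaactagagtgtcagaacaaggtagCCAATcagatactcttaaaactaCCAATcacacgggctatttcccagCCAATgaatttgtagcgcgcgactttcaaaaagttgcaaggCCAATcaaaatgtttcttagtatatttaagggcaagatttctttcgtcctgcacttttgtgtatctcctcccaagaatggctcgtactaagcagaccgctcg
Hist3h2a, chr11:58954435-58954734, plus strand: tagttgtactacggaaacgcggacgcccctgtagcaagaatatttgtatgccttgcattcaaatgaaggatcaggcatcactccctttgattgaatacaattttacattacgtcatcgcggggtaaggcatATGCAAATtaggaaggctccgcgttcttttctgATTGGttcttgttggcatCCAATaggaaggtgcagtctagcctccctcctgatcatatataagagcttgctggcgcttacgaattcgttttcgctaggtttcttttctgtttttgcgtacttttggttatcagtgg

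Of the 67 members, 62 were matched to RefSeq promoters, with 63 windows in all. TATAAA was in 35 of the 63 windows (55.6%) and in 13.6% of all 32851 promoters of the same length. CCAAT was in 54 (85.7%) against 37.4% of all, and the octamer in 14 (22.2%) against 1.74%. The octamer was in 7 of 18 H2A and 7 of 17 H2B windows and in none of the H1, H3 and H4 windows. CCAAT was in each H1, H2A, H2B and H3 window and in 3 of 12 H4 windows. The window of Hist1h2ae overlaps that of the H2B gene Hist1h2bg on the opposite strand, and the octamer is within the overlap, so the same letters count for both. A match is a description of the letters and not a binding site.

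The libraries held between 59309093 and 98583066 UMIs over 6873 to 16137 barcodes, and 46062 cells were kept after filters and doublet removal. Haemoglobin took from 1.87% of the UMIs in AOM PN 3 to 61.4% in Apc ICI 3, so levels are given as CPM, the UMIs of a gene per 1000000 UMIs of the same cells without haemoglobin. Between 4 and 31 barcodes were shared by a pair of libraries, and no library was a copy of another. Classes of cells were rebuilt from clusters and marker genes and are called epithelial-like, neutrophil-like and so on. The 15 epithelial markers summed to 10324 to 13907 CPM in the epithelial-like cells of the 6 libraries. Mast-like cells numbered 12, 18 and 17 in Apc ICI 1 to 3, under the minimum for a value, and 1120, 225 and 2425 in AOM PN 1 to 3, so their levels are given for AOM PN alone. A value is given where a library holds at least 20 cells of the kind.

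Over all kept cells the 12 members with the most UMIs held 75.9% of the members' total. Hist1h2bc, an H2B gene, led with 38364 UMIs (15.8%), followed by the H2A gene Hist1h2ae with 23986 and the H1 gene Hist1h1c with 22929. Next came Hist1h2ap (H2A, 19750), Hist1h1b (H1, 17331), Hist1h1e (H1, 16200), Hist1h4d (H4, 13958) and Hist1h4i (H4, 9494). Hist1h2ab (H2A, 6356), Hist1h3c (H3, 5797), Hist2h2ac (H2A, 5440) and Hist1h3e (H3, 4691) completed the 12. The levels are counts of 3′ molecules and not values per length, so the order is one of captured molecules. The members lie in 4 stretches of the genome, 54 of them on chromosome 13 between 21715763 and 23934851 (GRCm38), 10 on chromosome 3, 2 on chromosome 11 and 1 on chromosome 6.

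The summed level of all members differed between cell classes. In the Apc ICI libraries it was 1143 ± 29.3 CPM (SD, n = 3) in epithelial-like cells, 572 ± 112 in B-like, 519 ± 19 in neutrophil-like and 509 ± 47.7 in erythroid-like cells. Lower levels were read in T/NK-like cells (353 ± 58.0), monocyte/macrophage-like cells (317 ± 118) and dendritic-like cells (241 ± 43.2). The B-like, neutrophil-like and erythroid-like levels lay within each other's spread. In the AOM PN libraries the level was 3554 ± 821 in epithelial-like cells and 3002 ± 2016 in mast-like cells, and 969 ± 114, 489 ± 111, 717 ± 219, 630 ± 111, 254 ± 34.7 and 393 ± 43.2 in B-like, neutrophil-like, erythroid-like, T/NK-like, monocyte/macrophage-like and dendritic-like cells. The large SD in mast-like cells comes from 681 in AOM PN 1 against 4321 in AOM PN 2 and 4003 in AOM PN 3. The classes come from clustering of the same cells, so differences between them are a description.

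**Figure D1:**
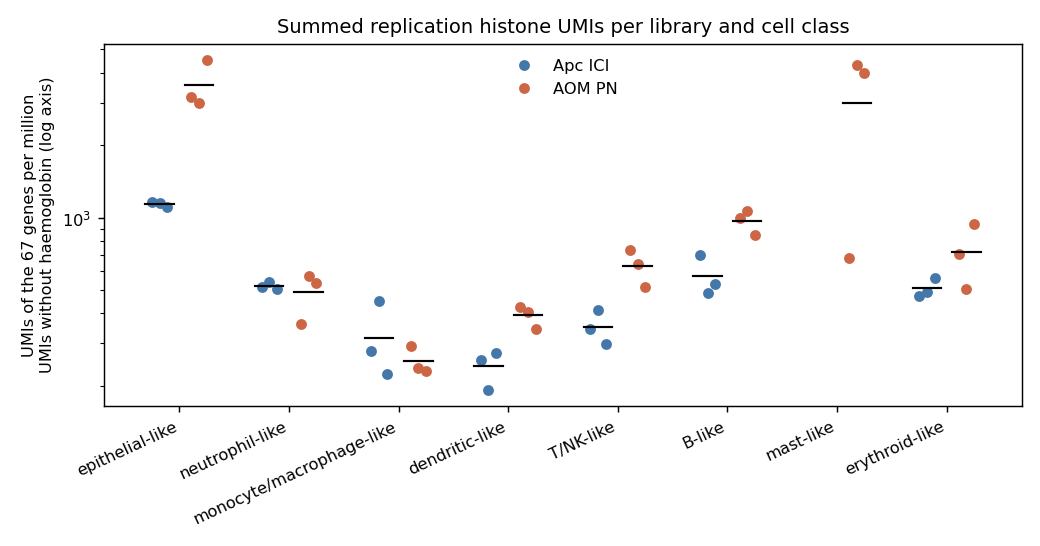
Summed level of the 67 replication histone genes in CPM, UMIs per 1000000 UMIs without haemoglobin (log axis), in each cell class, 1 point per library, coloured by tumour model, with bars at the group means. Epithelial-like cells of the 3 AOM PN libraries sit between 2989 and 4495, above the 1110 to 1166 of the Apc ICI libraries, while neutrophil-like, monocyte/macrophage-like and erythroid-like levels of the groups overlap.

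In epithelial-like cells the summed level was 1166, 1154 and 1110 CPM in the Apc ICI tumours and reached 3177, 2989 and 4495 CPM in AOM PN 1, 2 and 3, a ratio of means of 3.11. The groups did not overlap. The histone types did not share this difference equally. H4 members summed to 119, 109 and 124 against 846, 689 and 1522, and H3 members to 45.1, 43.9 and 44.9 against 294, 298 and 463. H1 members summed to 197, 221 and 209 against 702, 666 and 1062, and H2A members to 160, 173 and 187 against 716, 752 and 717. For H2B the sums overlapped, with 644, 607 and 546 against 618, 583 and 732.

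The overlap of the H2B sums went with Hist1h2bc, which was 536, 502 and 461 CPM in Apc ICI and 284, 343 and 221 in AOM PN, lower in all 3 AOM PN libraries. Hist1h1c was 134, 124 and 96.1 against 119, 123 and 195, and its groups overlapped. The other H1 genes among the 12 most abundant members did not: Hist1h1e was 38.7, 42.2 and 54.3 against 284, 252 and 511, and Hist1h1b 9.76, 33.2 and 31.8 against 150, 164 and 93.1. Both were higher in every AOM PN library. Hist1h2ae was 18.6, 29.2 and 31 against 189, 190 and 73.3, and Hist1h2ap 18, 29.1 and 37.6 against 171, 234 and 124. Among H4 genes, Hist1h4d was 35.5, 36.3 and 38.2 against 159, 180 and 195, and Hist1h4i 25.9, 31.7 and 33.4 against 116, 94.8 and 158. AOM PN 3 had the lowest Hist1h2ae, Hist1h2ap and Hist1h1b of its group and the highest Hist1h1e, Hist1h4d and Hist1h4i.

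Of the 67 members, 60 passed the filter on low counts in this contrast. In the edgeR fit 53 of the 60 were past an adjusted p of 0.05 upwards and 2 downwards, where 17.7% of all 12025 genes tested were upwards and 13.4% downwards. The members were selected on this contrast, so that count is fixed in part by the choice and nothing is read from it. The members' median log2 change was 3.20, against -0.04 over all genes. The 8 with the largest absolute change were Hist1h4n (log2 change 4.90 ± 0.34, SE), Hist1h4m (4.85 ± 0.81), Hist1h2bp (4.65 ± 0.65), Hist2h2ab (4.43 ± 0.56), Hist1h4c (4.41 ± 0.38), Hist1h4a (4.32 ± 0.50), Hist2h2bb (4.27 ± 0.40) and Hist1h2bl (4.2 ± 0.75). Of these Hist1h4c was 6.71, 4.84 and 4.64 CPM in Apc ICI and 90, 69.6 and 200.2 in AOM PN. Hist1h4n was 1.52, 0.980 and 1.92 against 31.6, 35 and 64.9. Levels of Hist1h2bp, Hist2h2ab and Hist1h2bl rest on 1 to 17 UMIs in most libraries and on 0 UMIs of Hist1h2bl in Apc ICI 1.

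Both Hist3 members went the other way. They lie side by side on chromosome 11, and they are named with their values seen. Hist3h2a (H2A) was 81.1, 70.4 and 66 CPM in Apc ICI and 14.6, 15.2 and 22.6 in AOM PN, a log2 change of -2.09 ± 0.21 (SE). Hist3h2ba (H2B) was 72.7, 67.4 and 41.6 against 7.29, 5.18 and 9.87, a change of -3.12 ± 0.32. The Apc ICI and AOM PN values of either gene did not overlap. The other 5 of the 60 were Hist1h2bc (-0.79), Hist1h1c (0.28), Hist1h2ag (1.12), Hist2h2be (-1.04) and Hist2h3c2 (-1.18).

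**Figure D2:**
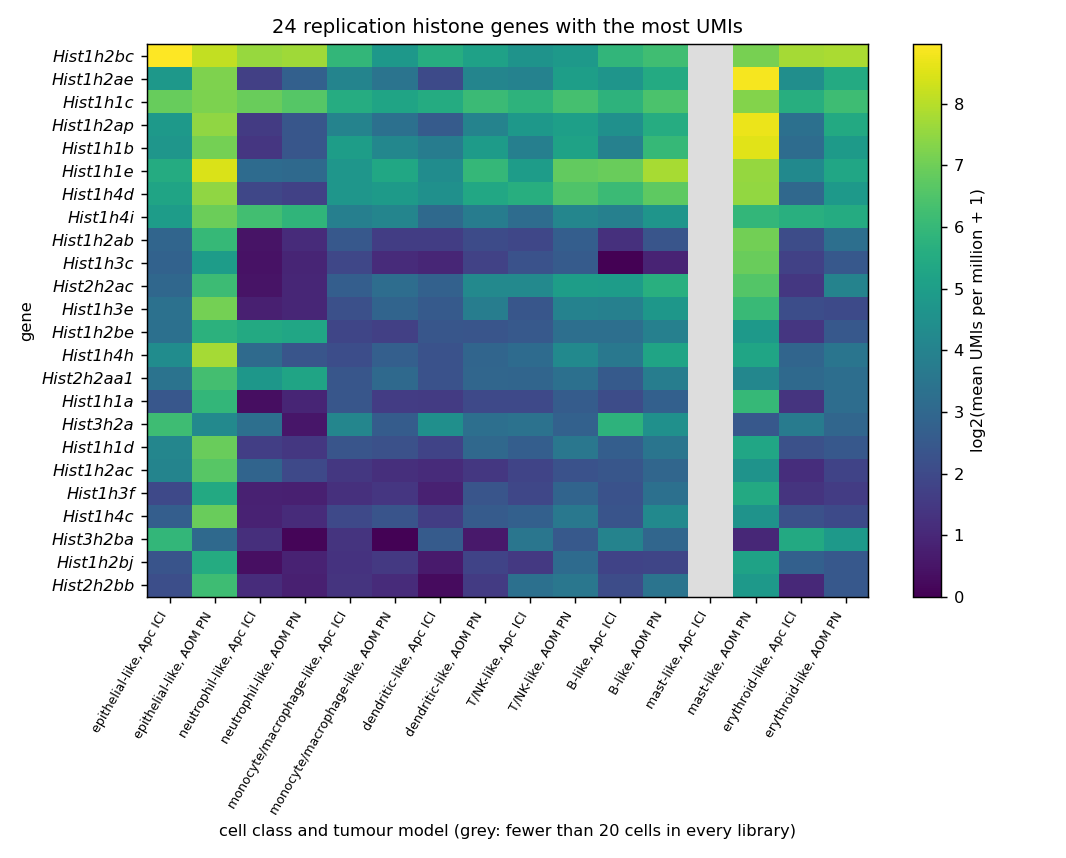
Colour map of the 24 members with the most UMIs, 1 row per member and 1 column per cell class and tumour model. Colour gives log2 of the group mean in CPM plus 1, and grey marks a class and model without a value. In epithelial-like cells the AOM PN mean of Hist1h2bc is below the Apc ICI mean and that of Hist1h1c is slightly above it. The AOM PN means of Hist1h1e, Hist1h2ae and Hist1h3e are well above those of Apc ICI.

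Cells and droplets of the epithelial-like class differed between the models in ways other than histone genes. A cluster led by Gm26917 and Reg3b had 72, 120 and 78 cells in Apc ICI and 593, 474 and 383 in AOM PN, and one led by Mt3, Mt4 and Epcam had 256, 511 and 267 against 2, 29 and 1. Median UMIs per cell were 4347, 7290 and 3049 in Apc ICI and 1098, 1606 and 1276 in AOM PN. Nuclear and low-quality RNA, a list of 8 genes with Malat1 and Neat1 among them, took 55471, 37715 and 41086 CPM in Apc ICI and 105059, 74695 and 203163 in AOM PN. Of its 6 tested genes 4 were higher in AOM PN, Gm26917 by 4.26 ± 0.63 and Lars2 by 2.40 ± 0.37 on the log2 scale (adjusted p = 0.00136 and 0.00167, edgeR). All 15 mast cell markers were detected in Apc ICI and in AOM PN epithelial-like cells, and their sum ran from 56.3 to 117 CPM in the first group and from 296 to 4485 in the second. T/NK markers summed to 17.8 to 19.7 (15 of 15 detected) against 62.1 to 184 (13 of 15, Cd4 and Klrb1c at 0). Neutrophil markers summed to 152 to 259 (14 of 15, Camp at 0) against 508 to 910 (13 of 15, Ngp and Camp at 0). In these cells a higher CPM cannot be told apart from less of the other RNA per cell, and the part of RNA from other cells in the result was not tested.

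The histone level moved with nuclear RNA and with depth inside the AOM PN libraries. In a split chosen after the values were seen, epithelial-like cells with under 5% nuclear and low-quality RNA read 1202, 1116 and 1077 CPM in Apc ICI (185, 572 and 377 cells). The same share read 1824, 2177 and 773 in AOM PN (300, 157 and 44 cells), and the groups then overlapped. The overlap came from AOM PN 3 alone, whose 44 cells had a median of 783.5 UMIs. Median UMIs in this range were 1117.5 in AOM PN 1 and 5533 in AOM PN 2. The part of depth in the lower value of AOM PN 3 was not tested. AOM PN 1 and 2 stayed above all Apc ICI values. From 10% upwards the level was 1063, 1511 and 1346 against 4749, 5016 and 5092, from 523, 434 and 372 AOM PN cells, with no overlap. In that range Hist1h1e was 96.7, 155 and 172 CPM in Apc ICI and 433, 534 and 563 in AOM PN. Under 5% it was 23.0, 35.2 and 33.1 against 165, 151 and 82.8, and the groups did not overlap there either. Hist1h2ae went the other way inside AOM PN 1 and 2, at 241 and 232 under 5% and 129 and 93.2 from 10%. In AOM PN 3 it was at 0 in the 44 shallow cells under 5%, too few to give a direction, and at 76.7 from 10%.

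By depth, kept cells of under 1500 UMIs read 1724, 1825 and 1578 CPM in Apc ICI and 3973, 4686 and 4795 in AOM PN. From 5000 UMIs upwards they read 1143, 1126 and 1080 against 1855 and 2357, and AOM PN 3 had 12 such cells. Doublet removal took 485, 116 and 211 epithelial-like droplets from the AOM PN libraries and 157, 120 and 143 from the Apc ICI libraries. The removed AOM PN droplets had median UMIs of 19554, 10041 and 13205 and summed to 1512, 1169 and 1299 CPM. With them put back, the range from 5000 UMIs read 1290, 1081 and 1164 in Apc ICI and 1499, 1750 and 1262 in AOM PN, and the groups overlapped. Over all depths with them put back the mean levels were 1194 ± 96.8 and 1905 ± 253 (SD, n = 3), a ratio of 1.60 in place of 3.11. Whether the removed droplets were doublets or large single cells was not tested.

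**Figure D3:**
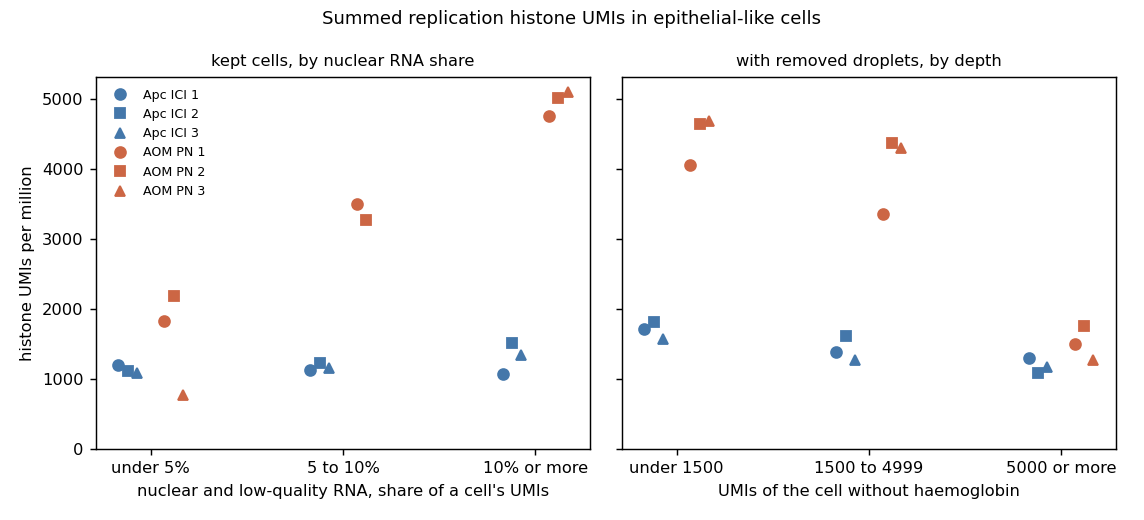
Summed replication histone level in CPM in epithelial-like cells, 1 point per library, split by the share of nuclear and low-quality RNA (left, kept cells) and by UMIs per cell with the removed droplets put back (right); AOM PN 3 has too few cells at 5% to 10% for a point. The AOM PN points fall from 4749 to 5092 at 10% or more nuclear RNA to 773 to 2177 under 5%, and from 4055 to 4686 under 1500 UMIs to 1262 to 1750 from 5000 UMIs.

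The histone level was next set against Mki67 and Top2a, markers of cells that are dividing. Cells with a UMI of both genes (double-positive) were compared with cells that had none of either (double-negative). In epithelial-like cells double-positive cells summed to 1380, 1545 and 1701 CPM in Apc ICI and to 5732 and 5307 in AOM PN 1 and 2. AOM PN 3 had 11 such cells and gave no value. Double-negative cells summed to 1158, 1068 and 946 in Apc ICI and to 2686, 2862 and 4249 in AOM PN. The ratio within a library was 1.19 to 2.13, median 1.80, and was above 1 in 5 of 5 libraries. Double-negative epithelial-like cells of all 3 AOM PN libraries were above the double-positive cells of all 3 Apc ICI libraries. The former had a median of 1175 UMIs and the latter of 20691, and the part of depth in this difference was not tested.

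In T/NK-like cells the sums were 525, 1077, 1875 and 1539 in double-positive cells of Apc ICI 1 and AOM PN 1, 2 and 3, and 324, 723, 463 and 451 in their double-negative cells. The ratio was 1.49 to 4.05 in 4 libraries. In mast-like cells of AOM PN 1, 2 and 3 they were 1217, 15030 and 13556 in double-positive and 616, 492 and 647 in double-negative cells, ratios of 1.97, 30.5 and 21. Mast-like cells with a UMI of only one of the genes read 826, 609 and 1164. AOM PN 1 was apart from the other mast-like libraries, with 22 double-positive cells kept of 1120. Doublet removal had taken 197 mast-like droplets from it, 90 of them double-positive, and these summed to 10034 CPM. With all removed droplets put back the summed level over all mast-like cells was 3622 ± 237 (SD, n = 3) in AOM PN. Double-positive cells were deeper than double-negative cells in all 3 classes. For example, median UMIs were 20691 against 3388 in Apc ICI epithelial-like cells, 3991 against 1175 in AOM PN epithelial-like cells, and 17114 against 5798 in AOM PN mast-like cells.

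**Figure D4:**
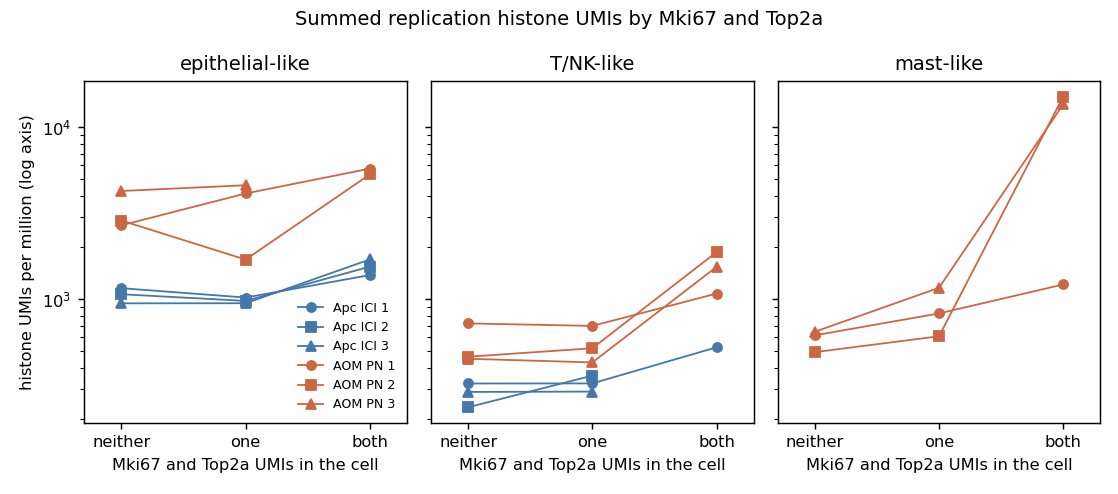
Summed replication histone level in CPM (log axis) in cells with a UMI of neither, only 1 or both of Mki67 and Top2a. Lines join the values of 1 library, for epithelial-like, T/NK-like and mast-like cells. Every line that reaches cells with both genes ends above its value in cells with neither. The steepest are those of mast-like cells in AOM PN 2 (492 to 15030) and AOM PN 3 (647 to 13556).

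Single members were tested between double-positive and double-negative cells with the library as a block, by edgeR's quasi-likelihood test with Benjamini-Hochberg adjustment over all genes. In epithelial-like cells of 5 libraries 35 members were tested, 20 rose and 3 fell in double-positive cells, where 16.3% of all genes rose and 19.6% fell. The members' median log2 change was 0.99 and that of all genes -0.08. The median moved with the settings: it was 0.555, 0.485 and 0.47 without Apc ICI 1, Apc ICI 3 and AOM PN 1, 0.264 with at least 2 UMIs of the pair, 0.183 with a UMI of either gene, 0.382 with doublets kept and 0.294 at a 10% mitochondrial limit. The H3 gene Hist1h3c rose most: it was 17.9, 14.2, 22.8, 107 and 139 CPM in double-positive cells of Apc ICI 1, 2 and 3 and AOM PN 1 and 2, and 0.870, 1.18, 0.587, 8.22 and 13.6 in their double-negative cells. That is a log2 change of 3.76 ± 0.26 (SE; adjusted p = 4.1e-07). Hist1h1b was 42.5, 102, 95.5, 355 and 675 against 4.35, 7.32, 4.70, 67.4 and 36.4, a change of 3.63 ± 0.25 (adjusted p = 3.8e-07). The ranges over libraries met, but both genes were higher in double-positive cells of 5 of 5 libraries. Hist1h2ap (3.36 ± 0.20), Hist1h2ae (2.68 ± 0.19), Hist1h2ab (2.62 ± 0.23) and Hist1h2bm (2.09 ± 0.26) followed, and these 6 passed under every alternative that tested them.

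At the other end of the list the H4 gene Hist4h4 fell by 1.12 on the log2 scale (SE 0.22, adjusted p = 0.0023), from 12.8, 9.91, 14.4, 152 and 136 in double-negative cells to 8.96, 4.16, 8.08, 107 and 37.8. It was lower in 5 of 5 libraries. Hist1h4c (-0.61 ± 0.22, adjusted p = 0.05 after rounding) and Hist3h2ba (-0.58 ± 0.21, adjusted p = 0.048) passed narrowly, and each lost its call in 4 of the 5 fits without 1 library. The H2A gene Hist2h2aa1 was between Hist4h4 and Hist1h4c (-0.83 ± 0.33) and did not pass (adjusted p = 0.0633), while the H4 gene Hist1h4d rose. Hist1h1e rose by 0.51 ± 0.13 (adjusted p = 0.0097). Hist1h2bc was 593, 643, 632, 256 and 211 in double-positive and 520, 461, 418, 282 and 364 in double-negative cells and did not pass (0.13 ± 0.18), nor did Hist1h1c (-0.25 ± 0.16) or Hist1h4i (0.44 ± 0.23).

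In T/NK-like cells of 4 libraries 19 members were tested, and 14 rose and 0 fell, where 13.8% of all genes rose and 9.81% fell. The median log2 change was 1.06 over members and -0.02 over all genes. The largest changes were again of Hist1h3c (4.61 ± 0.49, adjusted p = 3e-05) and Hist1h1b (4.47 ± 0.24, adjusted p = 1.3e-07). Hist1h1b was 22.5, 232, 345 and 218 CPM in double-positive cells of Apc ICI 1 and AOM PN 1, 2 and 3 and 2.11, 19.2, 9.67 and 7.64 in double-negative cells, with no overlap. Hist1h2ab (3.41 ± 0.47), Hist1h2bj (3.38 ± 0.36), Hist1h2ap (3.22 ± 0.40) and Hist1h2ae (3.09 ± 0.27) came next. The smallest changes past the threshold were of Hist1h1e (0.67 ± 0.21), Hist2h2ac (0.70 ± 0.22), Hist1h4d (0.87 ± 0.24) and Hist1h2be (0.99 ± 0.34). Each of these 4 lost its call without AOM PN 2 and without AOM PN 3, and DESeq2 called 8 members in place of 14. Hist1h1c (-0.45 ± 0.22) and Hist1h2bc (0.13 ± 0.45) did not pass.

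In mast-like cells of the 3 AOM PN libraries 31 members were tested, and 27 rose and 0 fell, where 6.29% of all genes rose and 3.08% fell. The median log2 change was 3.35 over members and -0.05 over all genes. Hist1h3c was 20.1, 646 and 716 CPM in double-positive and 1.72, 2.13 and 2.3 in double-negative cells of AOM PN 1, 2 and 3, a change of 7.39 ± 0.66 (adjusted p = 8.5e-05). Hist1h2ae was 56.8, 2357 and 2727 against 21.6, 15.6 and 28.7, a change of 5.35 ± 0.98 (adjusted p = 0.0077). In AOM PN 2 and 3 both were more than an order of magnitude above AOM PN 1 among double-positive cells, and close to it among double-negative cells. Hist1h1b was 170, 2421 and 1603 against 28, 16.4 and 20.2 (5.37 ± 0.75, adjusted p = 0.0015). Hist1h2ab (6.04 ± 0.58), Hist1h2bb (5.62 ± 0.34) and Hist1h2ap (5.25 ± 0.79) completed the 6 largest. The smallest past the threshold were Hist1h4i (1.31 ± 0.21), Hist1h4c (2.07 ± 0.33), Hist1h2bg (2.10 ± 0.34) and Hist3h2a (2.38 ± 0.50). Hist1h1c was 134, 179 and 288 against 153, 124 and 148 and did not pass (0.35 ± 0.22), nor did Hist1h2bc (1.25 ± 0.59). All 27 passed under every alternative that tested them.

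**Figure D5:**
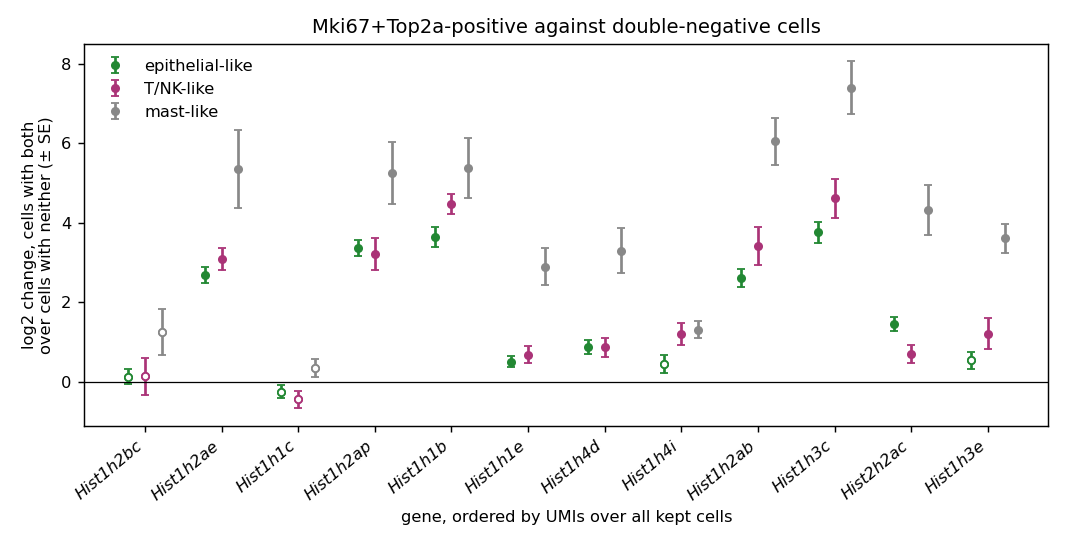
Log2 change between double-positive and double-negative cells (points, with SE bars) in epithelial-like, T/NK-like and mast-like cells. The 12 members with the most UMIs are shown where tested, filled where the edgeR adjusted p is under 0.05. Hist1h3c and Hist1h1b are at or near the top in all 3 classes, with 3.76 and 3.63 in epithelial-like, 4.61 and 4.47 in T/NK-like and 7.39 and 5.37 in mast-like cells, and Hist1h1c is near 0.

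Other genes of the histone pathway were read in the same fits, from lists chosen with earlier results of these data known. Of histone chaperones, which carry histones to DNA, 11 of 16 rose in epithelial-like, 11 of 16 in T/NK-like and 9 of 16 in mast-like cells. Asf1b rose by 3.78 ± 0.32, 4.52 ± 0.23 and 4.35 ± 0.32 and Chaf1a, a subunit of chromatin assembly factor 1, by 2.61 ± 0.26, 3.68 ± 0.28 and 2.61 ± 0.30. Of genes for synthesis and 3′ processing of histone messages 6 of 18, 7 of 17 and 5 of 18 rose. Ccne2 and Ccne1, the E cyclins that start S phase with Cdk2, rose by 2.82 ± 0.35 and 2.50 ± 0.37 in epithelial-like and 3.31 ± 0.33 and 4.38 ± 0.41 in mast-like cells. Slbp was higher by 0.31 ± 0.13 in epithelial-like cells without passing the test and rose by 0.78 ± 0.11 and 0.80 ± 0.19 in T/NK-like and mast-like cells; it is named for its role, with its values seen. Of the variant histones made outside S phase 5 of 10, 3 of 8 and 3 of 9 rose and H3f3b fell in T/NK-like cells (-0.44 ± 0.06), with H2afz at 1.77 ± 0.16, 1.43 ± 0.12 and 1.02 ± 0.17 and H2afx at 1.68 ± 0.23, 1.67 ± 0.25 and 2.20 ± 0.37. S phase genes rose in 26 of 26, 27 of 27 and 27 of 28, and G2 and M phase genes in 26 of 26, 20 of 20 and 23 of 23. Nuclear and low-quality RNA genes fell in 5 of 6, 4 of 6 and 2 of 6, and their part in the changes of the members was not tested.

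Between the models these lists did not follow the members in epithelial-like cells. None of 28 S phase genes, none of 26 G2 and M phase genes and none of 18 synthesis and processing genes passed the edgeR threshold there, with medians of 0.18, 0.19 and -0.09 on the log2 scale. Of 16 chaperones 1 fell, Rbbp4 by 0.74 (SE 0.23, adjusted p = 0.037). Of 10 variant histones H2afx was higher in AOM PN by 1.55 ± 0.32, and 5 were lower, among them H2afy2 (-5.80 ± 0.42), H1fx (-3.70 ± 0.45) and H2afv (-1.67 ± 0.52). A p that misses the threshold does not show that these genes were alike.

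The share of double-positive cells depended on depth. In cells thinned to 1500 UMIs it was 2.28%, 1.31% and 2.99% in Apc ICI epithelial-like cells (8 of 351, 10 of 762 and 14 of 468) and 2.88%, 1.80% and 2.84% in AOM PN (9 of 313, 6 of 333 and 5 of 176). The groups overlapped (exact two-sided permutation test over libraries, p = 0.7; 3 against 3 cannot go below 0.1). Exact 95% binomial intervals ran from 0.631% to 4.97% in Apc ICI and from 0.664% to 6.50% in AOM PN, and such intervals cover counting error only. Without thinning the shares were 6.99%, 11.1% and 9.52% against 2.93%, 4.52% and 2.55% (exact permutation p = 0.1), the opposite order. In neutrophil-like cells, which are not expected to divide, the thinned share was 0 in 5 libraries and 0.0559% in AOM PN 2. In monocyte/macrophage-like cells it was 0.359%, 0.613% and 0.645% against 0.0519%, 0.108% and 0.131% (exact permutation p = 0.1), from 2, 3 and 2 against 1, 2 and 3 double-positive cells. The groups were apart there, but the difference turned to 0.0118 percentage points at 1000 UMIs. The groups overlapped with doublets kept (exact permutation p = 0.6). Between models, the edgeR fit called 10 of 23 G2 and M phase genes lower in AOM PN in this class and 0 higher. Their median log2 change was -2.11. Of 26 S phase genes 1 was lower and 0 higher, with a median of -0.76. The G2 and M phase genes summed to 119, 274 and 106 CPM in Apc ICI and 66.6, 45 and 49.8 in AOM PN. The part of dividing cells in this difference was not tested. Mast-like cells of AOM PN 1, 2 and 3 read 0.334%, 2.07% and 3.03%. This order depended on the processing. With doublets kept the mast-like shares were 4.21%, 3.48% and 4.08%, and in clusters without members and cell cycle genes 0.334%, 0% and 3.03%. T/NK-like cells gave an exact p = 0.9, and B-like, dendritic-like, erythroid-like and neutrophil-like cells p = 1, all 7 p-values being unadjusted and none able to pass 0.05.

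At the level of cells thinned to 1500 UMIs, with a limit chosen with the data seen, at least 10 histone UMIs were found in 30 epithelial-like cells of Apc ICI and 156 of AOM PN. Of the 156, 12 were double-positive, 26 had a UMI of 1 of the genes and 118 had none. These UMIs were counted after thinning, so a cell with none may hold some at full depth. For example, 396 AOM PN mast-like cells were double-positive at full depth and 76 after thinning. In mast-like cells of AOM PN 211 reached that limit, 59 double-positive, 110 with a UMI of 1 gene and 42 with none. Of the 42, 35 had at least 2 UMIs of S phase genes, and of the 118 epithelial-like cells 20 did. The makeup of the histone UMIs in these sets was as follows. In the 59 and in the 42 mast-like cells Hist1h2ae held 19.1% and 21.1% and Hist1h2ap 15.9% and 16.5%. In the 118 epithelial-like cells with no UMI of Mki67 and Top2a after thinning these members held 3.57% and 3.62%. In the 12 with both they held 4.92% and 9.84%. These are shares in pooled cells of the group and are given without a test. Members were also among the 10 leading genes of 2 clusters: a mast-like one of 467 cells, 413 of them from AOM PN 3, with Mki67 in 88.9% of cells, and an epithelial-like one of 89 cells, 37, 32 and 10 of them from AOM PN 1, 2 and 3, with Mki67 in 55.1%.

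Since histone genes are made in S phase and Mki67 and Top2a are highest later in the cycle, cells with at least 2 UMIs of 28 S phase genes were compared with cells with none, all of them without Mki67 and Top2a. By edgeR 0 members passed in neutrophil-like, monocyte/macrophage-like, dendritic-like, T/NK-like, B-like and mast-like cells, where 22.6%, 4.1%, 0.305%, 3.26%, 0.438% and 1.74% of all genes did. At an unadjusted p under 0.05 there were 2, 2, 0, 1, 2 and 0 members of 8, 15, 6, 7, 4 and 12 tested, and DESeq2 called 0 in each class. At a fixed 1500 UMIs 4 members passed in mast-like cells, each higher. The S-gene-positive cells of these classes were deeper too. Median UMIs were 12514 against 1221 in Apc ICI monocyte/macrophage-like, 17388 against 1795 in Apc ICI dendritic-like and 8112 against 1858 in AOM PN mast-like cells. The split therefore sorts cells by depth as well as by S phase, and nothing is concluded from the 0 calls. In epithelial-like cells 1 of 22 tested members was higher and 13 were lower in the S-gene-positive cells, where 17.9% of all genes were higher and 20.1% lower. Hist1h2ae was higher by 0.99 ± 0.34 (adjusted p = 0.027), but DESeq2 did not call it (adjusted p = 0.14), and with doublets kept its change was -0.003. The largest decreases were of Hist2h4 (-2.70), Hist4h4 (-2.40), Hist1h4c (-1.91), Hist1h3e (-1.72), Hist2h2aa1 (-1.67) and Hist1h1d (-1.60), and the smallest of Hist1h4d (-0.76), Hist1h4i (-0.81), Hist2h2ac (-0.93) and Hist1h2ac (-1.08). The summed level was lower in S-gene-positive cells of 6 of 6 libraries, with ratios of 0.491 to 0.917. These cells were much deeper, with median UMIs of 20977 against 1162 in Apc ICI and 2730 against 1034 in AOM PN, and 5 of 6 nuclear and low-quality RNA genes were lower in them. At a fixed 1500 UMIs 4 of 8 tested members passed, 2 in each direction, and Hist1h4d and Hist1h1e changed sign.

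The comparison of the models in immune classes did not enter the selection of the members and was tested. In neutrophil-like cells 18 members were tested, and 5 rose and 1 fell in AOM PN, where 14.7% of all genes rose and 17% fell; the members' share called, 6 of 18, is near the 31.7% called of all genes. Their median log2 change was 0.09 and that of all genes -0.05. Hist3h2a was 6.98, 11.2 and 7.97 CPM in Apc ICI and 0.418, 0.674 and 0.306 in AOM PN, a log2 change of -3.69 ± 0.37 (SE; adjusted p = 0.00035 by edgeR). It rested on 4, 10 and 3 UMIs in the AOM PN libraries, and the groups did not overlap. Hist1h2ae was 1.97, 1.95 and 2.81 against 5.44, 3.37 and 8.15 (1.84 ± 0.39, adjusted p = 0.0088). Hist1h2ap was 1.97, 2.38 and 1.41 against 4.50, 3.24 and 4.99 (1.56 ± 0.32, adjusted p = 0.008). The groups of both were apart. Hist2h2aa1 (0.94 ± 0.19, adjusted p = 0.0078) and the abundant Hist1h2bc (0.58 ± 0.16, adjusted p = 0.024), at 188, 183 and 200.2 against 154, 226 and 240.2 CPM, overlapped between the groups, as did Hist1h1b (1.74 ± 0.56, adjusted p = 0.042). Hist1h2bc and Hist1h1b lost their calls in most fits without 1 library. The scale matters in this class: with library totals without haemoglobin in place of edgeR's TMM factors, an alternative chosen with the data seen, the median of all genes moved from -0.05 to -0.53, and that of the members from 0.09 to -0.37. All genes then split into 338 higher and 3344 lower, and 2 members were called higher (Hist1h2ae and Hist1h2ap) and Hist3h2a lower. These 3 passed in every alternative that tested them, and Hist2h2aa1 lost its call on that scale (0.48, adjusted p = 0.129). Different clusters held most neutrophil-like cells of the models: a cluster led by Cstb and Hmox1 had 705, 1398 and 432 Apc ICI and 31, 86 and 32 AOM PN cells, and one led by Retnlg and S100a9 had 28, 16 and 183 against 1807, 439 and 557.

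Hist3h2a was called lower in AOM PN in 2 other immune classes as well. In monocyte/macrophage-like cells it was 16.9, 18.3 and 14 CPM in Apc ICI and 4.41, 6.01 and 5 in AOM PN, with no overlap. The log2 change was -1.49 ± 0.18 (adjusted p = 0.0076, edgeR), and without Apc ICI 2 the adjusted p rose past the threshold. It was the only one called of the 30 members tested in that class, where 3.49% of all genes were called. On library totals the median of all genes in this class moved from -0.02 to -0.21, and 0 members were called higher and 2 lower, the second being Hist1h2bc (-1.21, adjusted p = 0.0277). In B-like cells it was 58.7, 44 and 61.5 against 16.2, 30 and 19.3 (-1.31 ± 0.29, adjusted p = 0.043), and 1 of 6 fits without a library kept the call. In dendritic-like cells all 3 AOM PN libraries were below all 3 Apc ICI libraries without a call, with a log2 ratio of mean CPM of -1.25. Epithelial-like cells showed the same direction, as given above. Epithelial markers summed to 151 to 239 CPM in Apc ICI against 62.2 to 139 in AOM PN in neutrophil-like cells. In B-like cells they summed to 142 to 307 against 40 to 108. The groups overlapped in monocyte/macrophage-like (88.7 to 148 against 39.5 to 92.1) and dendritic-like cells (135 to 211 against 137 to 146). The part of epithelial RNA in the change of Hist3h2a was not tested.

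Hist1h1e, an H1 gene, rose in 3 immune classes. In T/NK-like cells it was 24.3, 35.6 and 30.3 CPM in Apc ICI and 158, 91.5 and 86.4 in AOM PN (2.04 ± 0.25, adjusted p = 0.0063, edgeR), with groups far apart. There 5 of 29 tested members rose and 0 fell, where 3.09% of all genes rose and 2.85% fell, with a median log2 change of 0.92 over members and -0.02 over all genes. The others were Hist1h3e (1.77 ± 0.40), Hist1h4i (1.10 ± 0.21), Hist2h2ac (0.95 ± 0.20) and Hist1h1c (0.70 ± 0.15). Hist1h1c was 49.3, 48.8 and 65.1 against 92, 67.6 and 78.4, and Hist1h4i 8.69, 8.57 and 6.73 against 15.9, 16.6 and 16.3, neither with overlap. The call of Hist1h1e held in all 6 fits without 1 library, and those of the other 4 were lost in 4 or 5 of the 6. All 5 were lost when cells were clustered without members and cell cycle genes, where the adjusted p of Hist1h1e was 0.053. On library totals the median of all genes moved from -0.02 to -0.13, and the call of Hist1h1c was lost.

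In B-like cells 10 members were tested and 2 called, where 1.19% of all genes were. Hist1h1e was 138, 105 and 115 CPM in Apc ICI and 254, 217 and 198 in AOM PN (0.87 ± 0.18, adjusted p = 0.029, edgeR). The groups did not overlap, and the call was lost without AOM PN 1 and without each Apc ICI library. In dendritic-like cells 3 of 14 tested members rose, where 0.987% of all genes were called in either direction. Hist1h2ae was 5.19, 2.3 and 1.72 against 18, 14.8 and 14.7 (2.28 ± 0.36, adjusted p = 0.031), from 9, 4 and 1 UMIs in Apc ICI. Hist1h1e was 15.6, 11.5 and 30.9 against 84.6, 58.3 and 42.5 (1.93 ± 0.36, adjusted p = 0.049), and Hist1h2ap rose by 1.72 ± 0.29 (adjusted p = 0.032). The groups of each were apart. All 3 calls were lost in 5 of 6 fits without 1 library and with a replicate block. With thinning Hist1h1e lost its call and the other 2 members were under the filter. In clusters made without members and cell cycle genes Hist1h2ae and Hist1h2ap turned to -0.10 and -0.18, so their direction here depends on the clustering. In erythroid-like cells 0 of 6 tested members passed by edgeR, where 3.97% of all genes did, with 1 at an unadjusted p under 0.05 and 0 by DESeq2.

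Markers of mast cells moved with these contrasts. All 15 were detected in T/NK-like cells, with a sum of 140 to 320 CPM for the Apc ICI tumours against 1182 to 2106 for AOM PN. They summed to 139 to 214 (14 of 15 detected, Fcer1a at 0) against 2372 to 6379 in B-like cells and to 98.1 to 133 (13 of 15, Tpsab1 and Gata2 at 0) against 239 to 1359 in dendritic-like cells. In neutrophil-like cells they summed to 1451 to 1991 against 2961 to 5007, with Hdc on the lists of both mast cells and neutrophils, and in monocyte/macrophage-like cells to 74.4 to 119 against 190 to 1340. Mast-like cells of AOM PN themselves held Hist1h2ae at 27.9, 632 and 727 CPM. In T/NK-like cells other RNA moved as well: nuclear and low-quality RNA took 43188 to 50555 CPM in Apc ICI against 28342 to 30747 in AOM PN, fibroblast markers 449 to 613 against 241 to 342, and neutrophil markers 885 to 1074 (13 of 15 detected, Ngp and Camp at 0) against 546 to 736 (15 of 15). A T/NK-like cluster led by Ikzf2 and Ttn had 86, 180 and 63 Apc ICI and 31, 40 and 54 AOM PN cells. The part of these in the rise of Hist1h1e, Hist1h2ae and Hist1h2ap was not tested.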

How the data were processed

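Raw UMI counts of 6 libraries were deposited by the authors; the submitters' processing notes name Cell Ranger 6.1.2 and mm10, while the gene annotation and the rule that called cells are not given in the sources used here. Per the labels, dead cells had been removed by DAPI sort, and libraries were 10x 3′. Barcodes were kept from 200 genes upwards if their mitochondrial share of UMIs did not exceed 20%. Doublets were scored against simulated ones in each library, and 0.8% per 1000 barcodes were removed (275 to 1507). Counts without haemoglobin were scaled to 10000, reduced to 30 principal components of 2000 variable genes and clustered (leidenalg 0.10.2, 20 neighbours, resolution 1; Python 3.11.15, numpy 2.4.6, scipy 1.17.1, scikit-learn 1.9.0). A cluster was called X-like with at least 3 markers in at least 10% of its cells, each past a log2 fold of 1. It stayed unnamed if its 10 leading genes held more markers, at least 3, of another class. A shallow cluster with no own marker among them stayed unnamed too. By rules set after the clusters were seen, so did clusters with Mcpt8 among the leading genes. The same held for at least 10 markers of a second class with no own marker among the leading genes. A pool of epithelial clusters was clustered again, and 1107 cells stayed unnamed. The names can differ from those of the study.

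Counts summed per library and class (at least 20 cells) were tested over all genes with edgeR 4.0.16 (TMM, filterByExpr, quasi-likelihood F test, Benjamini-Hochberg threshold 0.05; R 4.3.3), with the library as a block where cells of 1 library were compared. DESeq2 1.42.0, no low count filter, doublets kept, a 10% mitochondrial limit, cells thinned to 1500 UMIs, haemoglobin removed, clusters without members and cell cycle genes, a replicate block, library totals in place of TMM factors and leaving out each library were alternatives. Tested on simulated counts with the real genes, the fits found between 24% and 100% of the 2-fold changes and between 85% and 100% of those of 4-fold, with 2.68% to 10.9% false calls; the lowest recovery of 2-fold changes was in erythroid-like (24%) and epithelial-like cells (25%) between models.

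The members, gene lists and tests were chosen with earlier results of these data known. Named were the 12 members with the most UMIs, in a tested comparison every member past the threshold (or, above 12, the 6 largest and 4 smallest changes past it), in the epithelial description the 8 largest changes, and from other lists at most 4 genes per comparison; exceptions are stated. Same-numbered samples of the groups did not deviate together (21 pairs, r from -0.401 to 0.209, 1 above 0.1), so numbers were taken as names. Stem-loops were searched in GENCODE transcripts and promoters in RefSeq.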

Additional observations from a re-analysis of the deposited data

Results flagged for a closer look

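In epithelial-like cells without Mki67 and Top2a, the log2 ratio of the summed histone level in S-gene-positive over S-gene-negative cells was -1.03 in AOM PN 2, farther from the other 5 libraries than Dixon's 95% limit for 6 samples allows. The others lay between ratios of 0.728 and 0.917, and AOM PN 2 was at 0.491. Chance passes this limit in about 1 of 20 groups. The limit was applied to every class and comparison with enough libraries, so several groups were searched for this 1 result.

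Hist1h4i, an H4 gene, was lower in all 3 AOM PN libraries than in all 3 Apc ICI libraries in neutrophil-like cells (43.4, 69.5 and 57.9 CPM against 83.4, 72.3 and 71.0). It was higher in all 3 AOM PN libraries in epithelial-like, monocyte/macrophage-like (16, 15.1 and 16.6 against 14.7, 13.3 and 13), dendritic-like and T/NK-like cells. The log2 ratio of means in neutrophil-like cells was lower than in those classes by 2.43, 0.62, 1.18 and 1.44 in turn (values of -2.43, -0.62, -1.18 and -1.44). The direction in neutrophil-like cells holds on the CPM scale and not in the tested fit: the edgeR fit with TMM factors gave a log2 change of 0.07 ± 0.15 (SE, adjusted p = 0.767) against a log2 ratio of mean CPM of -0.41. The difference between classes was not tested.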

How the results depend on the processing

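Counts of members called moved by more than 1.5 times under some alternatives, and the cause was not tested. Between double-positive and double-negative T/NK-like cells (14 called), DESeq2 called 8, a UMI of either gene gave 5, at least 2 UMIs of the pair 9, clusters without members and cell cycle genes 25, doublets kept 26 and no low count filter 23. In mast-like cells (27) doublets kept gave 50 and no filter 53. In epithelial-like cells (20 higher, 3 lower) the split was 14 and 8 with a UMI of either gene, 17 and 6 with doublets kept and 11 and 6 with a 10% mitochondrial limit.

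Between models, thinning to 1500 UMIs left 32 of 55 epithelial-like calls (given as a description, since the members were selected on that contrast), and the 5% nuclear limit, added after the data were seen, 23. Thinning gave 0 in B-like (2), 1 in T/NK-like (5), 0 in dendritic-like (3), 2 in monocyte/macrophage-like (1) and 3 in neutrophil-like cells (6). No low count filter gave 14, 11, 6 and 12 in T/NK-like, dendritic-like, monocyte/macrophage-like and neutrophil-like cells. DESeq2 called 8 in T/NK-like and 2 in monocyte/macrophage-like cells. Doublets kept gave 1 in B-like cells. Library totals in place of TMM, added after the data were seen, gave 2 in monocyte/macrophage-like and 3 in neutrophil-like cells, and 2 in the S phase comparison of neutrophil-like cells; all genes then split into 102 higher and 653 lower in monocyte/macrophage-like cells (161 and 224 with TMM) and 190 and 613 in T/NK-like cells (322 and 297). Clusters without members and cell cycle genes gave 0 in T/NK-like and 0 in dendritic-like cells. Same-numbered samples were not shown to be paired; with the replicate number as a block 0 calls were left in dendritic-like cells, 55 in epithelial-like, 5 in neutrophil-like and 6 in T/NK-like cells.

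Between S-gene-positive and S-gene-negative cells, epithelial-like calls (14) went to 4 with thinning and 27 without the filter. Mast-like calls (0) went to 4 with thinning, monocyte/macrophage-like (0) to 1 without the filter, and neutrophil-like (0) to 1 without it and 1 with doublets kept.

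The epithelial-like log2 ratio of summed levels, 1.64, was 0.674 with doublets kept. The AOM PN minus Apc ICI difference in double-positive share changed sign in some settings, in percentage points. For T/NK-like cells it was -0.103, and 0.367 without thinning, 0.242 with a UMI of either gene and 0.161 in clusters without members and cell cycle genes. For dendritic-like cells (0.213) it was -0.072 in those clusters. For epithelial-like cells (0.312) it was -5.86 without thinning and -0.127 with doublets kept. For monocyte/macrophage-like cells (-0.442) it was 0.012 at 1000 UMIs.

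Leaving out 1 library in turn, models calls ranged from 51 to 56 in epithelial-like, 0 to 2 in B-like, 1 to 9 in T/NK-like, 0 to 3 in dendritic-like, 0 to 1 in erythroid-like, 0 to 3 in monocyte/macrophage-like and 4 to 7 in neutrophil-like cells. Calls against double-negative cells ranged from 8 to 18 in T/NK-like, 19 to 21 in epithelial-like and 20 (without AOM PN 3) to 50 in mast-like cells. S phase calls ranged from 9 to 17 in epithelial-like and 0 to 1 in mast-like and monocyte/macrophage-like cells. Differences in share ranged from -0.318 to 0.098 (T/NK-like), -0.129 to 0.710 (epithelial-like), -0.532 to -0.389 (monocyte/macrophage-like), 0 to 0.319 (dendritic-like) and 0 to 0.028 (neutrophil-like).

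Of the values of single members compared under the alternatives, 188 lost a call, 53 gained one and 9 changed sign. Each of these 9 was called with or without the change of setting. The other 3114 stayed on their side of the threshold. A change of sign was not counted where neither value was called, so the 3114 did not all have to keep their sign. In epithelial-like cells between models, a description, Hist2h2aa1 went to -0.127 and Hist4h4 to -0.036 under the 5% nuclear limit, and Hist2h3c1 to -0.287 with doublets kept. In the S phase comparison Hist1h2ae went to -0.003 with doublets kept, and Hist1h4d to 0.200 and Hist1h1e to 0.227 with thinning. In dendritic-like cells Hist1h2ap went to -0.180 and Hist1h2ae to -0.101 in clusters without members and cell cycle genes. In cycling T/NK-like cells Hist1h2bc was -1.30 without AOM PN 2 and reached up to 0.542 without another library. Thinned fits of double-positive cells were not run, as too few such cells remain, nor were mast-like clusters without members and cell cycle genes. Depth limits members with few UMIs, and most of the 67 fell below the filter in immune classes.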
